A study of Mus musculus with 8 samples.

Results

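The cells described here are Pi16 Dpp4 Ly6a fibroblasts of the mouse forelimb at embryonic day (E)16.5. They were chosen by their transcripts: a cell belonged to the class if it held at least 3000 UMIs (unique molecular identifiers, each standing for 1 captured transcript), at most 10% of them from mitochondrial genes, and at least 1 UMI of 3 or more of the genes Pi16, Dpp4, Ly6a and Wnt2. Of 19556 cells that passed the same 2 filters in the E16.5 libraries, 1045 belonged to the class, and they are called Pi16/Dpp4 cells below. The series holds 53085 such cells in 8 libraries made from forelimbs between E11.5 and E16.5.

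Both E16.5 libraries came from C57BL/6J embryos of the genotype Hic1CreERT2/CreERT2;Rosa26LSLtdTomato/tdTomato. Their dams received 7.5 mg tamoxifen by gavage at embryonic day 10, which activates the Cre made by cells transcribing Hic1 at that time and marks those cells and their descendants with tdTomato. Viable tdTomato+ cells were sorted, and cells bearing the blood and endothelial antigens CD45, CD117, CD31, CD11b, F4/80 or Ter119 were excluded. The proximal library was made from the distal stylopod, the proximal zeugopod and the elbow between them, and the distal library from the distal zeugopod and autopod. Limits of the model are that both Hic1 alleles carry CreERT2 in every animal, that limbs of several embryos were pooled, and that each segment is 1 library, so segment, library and the Cell Ranger release used (3.0.2 for proximal, 6.0.1 for distal) cannot be told apart. With 1 library per segment and members picked by measured transcripts, no test between groups is given. The intervals are at 95%, exact for shares, levels and ratios and a Newcombe interval for the difference of 2 shares, and reflect only the sampling of counts.

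Pi16 encodes a secreted peptidase inhibitor of the CAP family, Dpp4 a cell-surface serine protease also known as CD26, Ly6a the GPI-anchored antigen Sca-1 and Wnt2 a secreted Wnt ligand. In adult mouse tissues, fibroblasts that carry Pi16, Dpp4 and Ly6a are known from the adventitia of vessels, the fascia and the interstitium around fat, where they surround themselves with elastic fibres and hyaluronan. They are commonly set apart from Col15a1-positive fibroblasts, which lie within the parenchyma close to capillaries.

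The promoters of the genes that define the class are shown because the cells were picked by transcripts from them. RefSeq promoter sequences for build GRCm38.p6 were matched for 3 of the 4 genes, and Ly6a was not matched in the table used here. Each sequence is 300 bases, from 250 before to 50 after the annotated start, on the strand of the gene, with capitals marking matches to a TATA box (TATAAA), a GC box (GGGCGG) or a CACCC box (CACCC) on either strand. Pi16 lies on the plus strand at chr17:29318632-29318931, Dpp4 on the minus strand at chr2:62412182-62412481, and Wnt2 on the minus strand at chr6:18030396-18030695.
Pi16: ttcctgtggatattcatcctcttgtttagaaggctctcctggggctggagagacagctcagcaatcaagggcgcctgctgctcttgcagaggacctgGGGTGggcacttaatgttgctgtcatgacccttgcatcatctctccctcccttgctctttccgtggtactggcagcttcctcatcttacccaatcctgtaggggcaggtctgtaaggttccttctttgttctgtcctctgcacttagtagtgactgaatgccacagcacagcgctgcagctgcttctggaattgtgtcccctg
Dpp4: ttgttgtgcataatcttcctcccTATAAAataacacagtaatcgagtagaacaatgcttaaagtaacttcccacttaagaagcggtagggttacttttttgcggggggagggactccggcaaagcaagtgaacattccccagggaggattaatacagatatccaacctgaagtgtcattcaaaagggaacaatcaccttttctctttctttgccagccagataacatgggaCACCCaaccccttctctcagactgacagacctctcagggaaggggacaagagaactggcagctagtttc
Wnt2: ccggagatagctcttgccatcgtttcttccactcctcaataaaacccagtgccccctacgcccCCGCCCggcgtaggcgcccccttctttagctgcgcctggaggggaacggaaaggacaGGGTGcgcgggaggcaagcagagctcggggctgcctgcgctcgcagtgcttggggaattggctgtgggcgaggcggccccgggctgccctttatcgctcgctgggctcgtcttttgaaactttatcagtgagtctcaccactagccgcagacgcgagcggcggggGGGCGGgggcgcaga
The base composition of these windows differed, with 53.3% G and C at Pi16, 45.3% at Dpp4 and 65.7% at Wnt2. A CACCC box was found once in each of them, a motif held by 57.5% of 32851 promoters of the same length. Dpp4 alone held a match to the TATA box letters, found in 13.6% of promoters. It lies near the upstream end of the window, far from the annotated start, and whether it acts as a TATA box was not tested. Wnt2 alone held GC boxes, found at 2 places there and in 35.7% of promoters. The AP-1 site TGANTCA, held by 7.81% of promoters, had no match in these windows.

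The libraries were deep, with 236408650 UMIs over 11716 barcodes for proximal and 160375326 over 9061 for distal. Pi16/Dpp4 cells held a median of 24799.5 UMIs in the proximal library and 24669 in the distal library, against 18167 and 17030.5 in all other cells of the same library. Their median number of genes was 4774 and 4887, against 4071 and 4061, and their median share of mitochondrial UMIs was 1.67% and 1.85%, against 1.98% and 2.23%. A rule that asks for transcripts of several genes takes deeper cells more readily, so levels below are given as CPM (UMIs of a gene per 1000000 UMIs summed over the cells of a group), and shares of cells also after every cell was thinned to 3000 UMIs. The median Scrublet doublet score, which is high for cells that resemble sums of 2 cells, was 0.0470 and 0.0439 in Pi16/Dpp4 cells and 0.0365 and 0.0359 in the others. With the 8% of cells with the highest score removed from each library, an alternative chosen after seeing the data, the class shares were 5.81% proximal and 4.21% distal, and the 25 genes named against other cells below all stayed at least 2-fold apart in the same direction. The 2 libraries shared 30 cell barcodes.

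The class made up a small share of both segments. It held 672 of 11109 proximal cells, or 6.05% (5.61 to 6.51%), and 373 of 8447 distal cells, or 4.42% (3.99 to 4.88%), a difference of -1.63 percentage points (-2.25 to -1.01). Both shares depend on depth and on the number of markers asked for. After thinning, 153 proximal cells (1.38%) and 56 distal cells (0.663%) met the rule. A rule of at least 2 markers gave 10.7% and 10.2%, and all 4 markers gave 3.04% and 1.60%.

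Each of the 4 markers was described in cells picked without it, by the number of the other 3 that they held. In this view the transcripts went together in both segments. Pi16 was detected in 1.79% of proximal cells without any of the other 3 markers, in 6.93% with 1, in 29.2% with 2 and in 65.5% (61.2 to 69.6%) with all 3. The same shares in the distal library were 4.91%, 28.4%, 62.5% and 82.8% (76.1 to 88.3%). Ly6a went from 3.41% to 87.1% in the proximal library and from 3.45% to 91.2% in the distal one. Wnt2 went from 5.64% to 93.1% and from 5.52% to 64.0%, and Dpp4 from 11.9% to 80.7% and from 4.65% to 52.7%. The increase was present for every marker at equal depth too. At 3000 UMIs, Pi16 was detected in 0.708% of proximal cells with none of the others and in 35.2% with all 3, and in the distal library in 3.03% and in 72.7%, the last being 8 of 11 cells. Thinned shares for Dpp4 were 2.99% and 30.9% in the proximal library and 1.33% and 24.2% in the distal one.

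**Figure D1:**
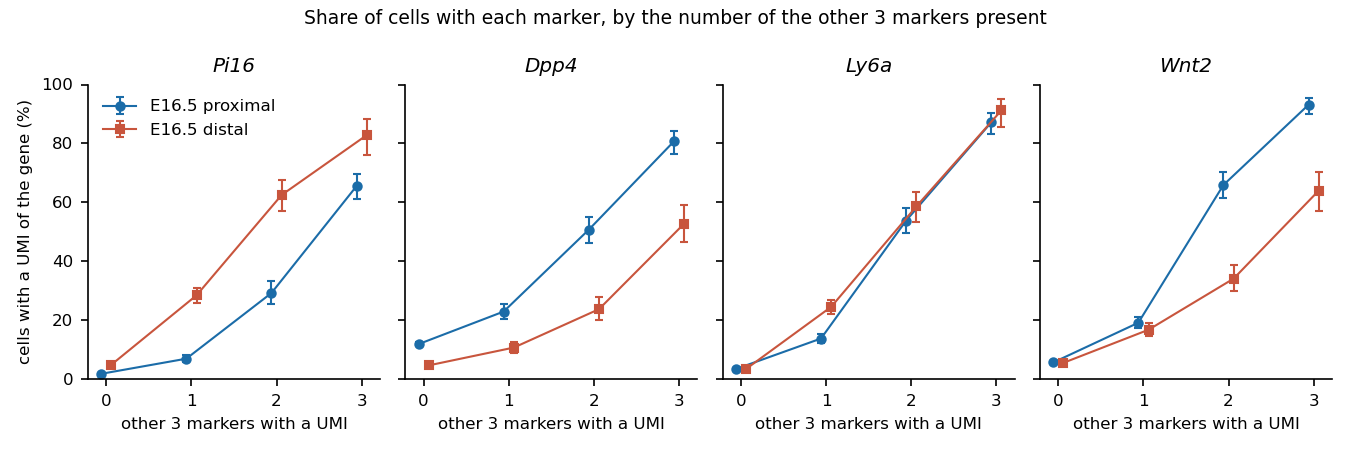
Share of cells with at least 1 UMI of each marker (y axis, percent) by the number of the other 3 markers they held (x axis), in the proximal and distal E16.5 libraries, with exact 95% binomial intervals. Every marker has its lowest share in cells with none of the others and its highest in cells with all 3, for example 1.79% and 65.5% for Pi16 in the proximal library.

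Free transcripts in droplets give some UMIs to cells that do not make a gene, so the marker shares were read beside cells of other types. Proximal cells with 5 or more chondrocyte markers, 1652 cells with a median of 19200 UMIs, held Pi16 in 3.51%, Dpp4 in 8.29%, Ly6a in 5.93% and Wnt2 in 5.87% of cells. In distal chondrocyte marker cells, 636 cells with a median of 17665 UMIs, the shares were 5.19%, 2.83%, 3.62% and 2.36%. Epithelial marker cells (3 or more epithelial markers) stood higher for all 4 markers. In 2534 proximal cells (median 25170.5 UMIs) the shares were 7.10% for Pi16, 30.6% for Dpp4, 9.91% for Ly6a and 12.3% for Wnt2. In 397 distal cells (median 21810 UMIs) they were 17.4%, 13.6%, 18.1% and 10.1%. Epithelia are a known site of Dpp4, and why the other 3 markers were higher too was not tested. These groups overlap the class, which held 48 and 4 of the chondrocyte marker cells and 153 and 26 of the epithelial marker cells, proximal and distal. Such cells hold 3 or more of the markers by the rule and raise the shares of these groups. In Pi16/Dpp4 cells the rule itself sets high shares, which are given as a description: 73.5% and 92.5% for Pi16, 87.9% and 67.6% for Dpp4, 92.6% and 96.5% for Ly6a, and 96.3% and 79.6% for Wnt2, proximal and distal. In all other cells Pi16 was found in 2.69% of proximal and 8.53% of distal cells, and Dpp4 in 12.8% and 5.21%.

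The 2 segments met the rule with different sets of markers. All 4 were present in 338 proximal members (50.3%) and in 135 distal members (36.2%). Members without Pi16 were 178 (26.5%) in the proximal library and 28 (7.51%) in the distal one. Members without Dpp4 were 81 (12.1%) and 121 (32.4%), and members without Wnt2 were 25 (3.72%) and 76 (20.4%). Missing Ly6a was the rarest in the distal library, with 13 cells (3.49%), against 50 proximal cells (7.44%). In CPM, Pi16 stood at 142 in proximal and 292 in distal members, Dpp4 at 128 and 71.9, Ly6a at 483 and 368, and Wnt2 at 252 and 110. These are levels of the genes that chose the cells and are a description only. In all other cells Pi16 stood at 1.91 CPM proximal and 19.4 CPM distal. Ly6a and its relative Ly6c1 have close paralogs in the Ly6 cluster, so how their reads were divided is uncertain.

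Cells just outside the rule carried the same genes at lower levels. The proximal library had 514 cells with 2 markers, 334 with 3 and 338 with all 4, and the distal library 487, 238 and 135. Cd55, which encodes the complement regulator decay-accelerating factor, stood at 7.92, 16.3, 71.6, 189 and 378 CPM in proximal cells with 0, 1, 2, 3 and 4 markers. Distal cells had 29.0, 80.9, 286, 378 and 517 CPM. The summed level of Cd55 thus rose at each added marker, without a break at the limit of the rule. Sums cannot tell cells of intermediate level from a mixture of class-like and other cells, and this was not tested. Fbn1, the microfibril protein fibrillin-1, stood at 475 CPM in proximal cells with 2 markers and 852 CPM with 3, and at 903 and 1359 CPM in distal cells. Mfap5, a protein that sits on fibrillin microfibrils, stood at 192 CPM in proximal cells with 0 markers and 2368 CPM with 4, and at 134 and 1817 CPM in distal cells. The tdTomato transcript of the lineage reporter showed no such order, at 1382, 1221, 1384, 1399 and 1280 CPM in proximal cells and 857, 794, 902, 897 and 943 CPM in distal cells. Every proximal member held at least 1 tdTomato UMI.

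**Figure D2:**
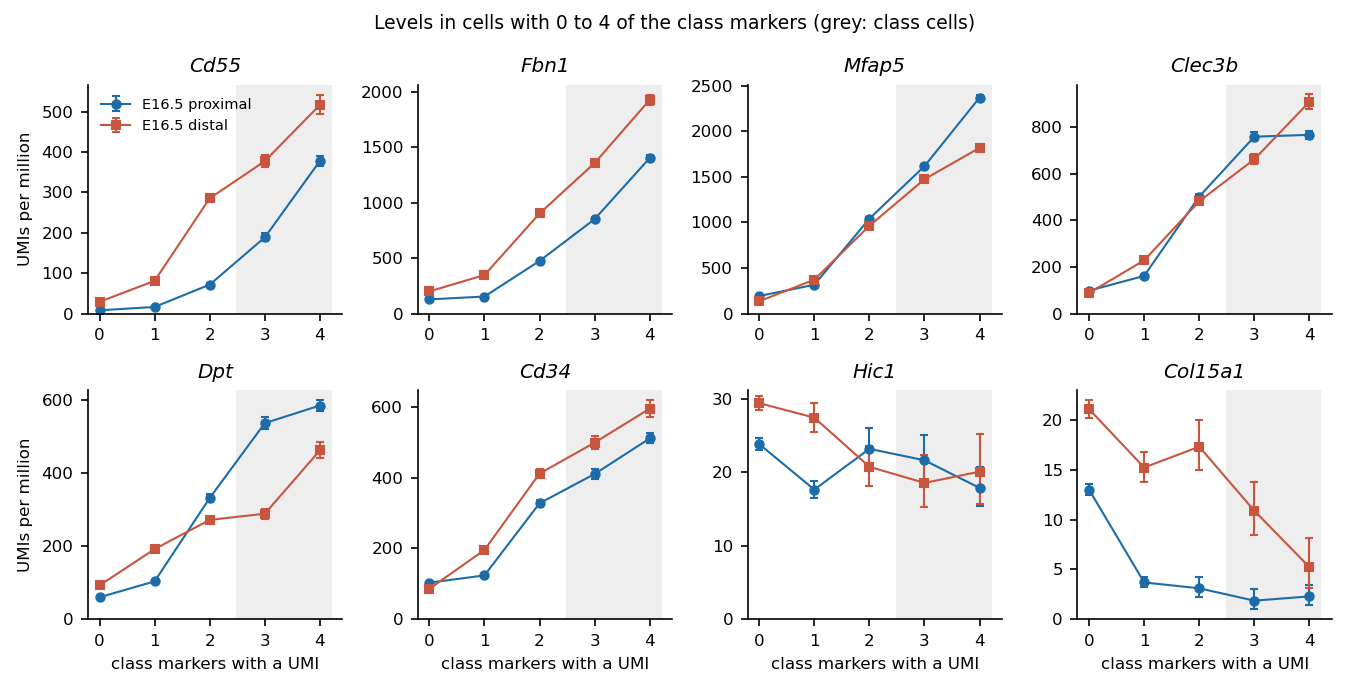
Level of 8 genes (y axis, CPM, linear from 0) in cells grouped by how many of the 4 class markers had a UMI (x axis), for the proximal and distal libraries, with exact 95% Poisson intervals and the class shaded. Cells with 2 markers, outside the class, lie between cells with 1 and cells with 3 for Cd55, Fbn1 and Mfap5 in both libraries, while Col15a1 is highest in cells with 0 markers.

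Compared with all other cells of their own library, Pi16/Dpp4 cells carried higher levels of 12 of 19 genes of adult adventitial fibroblasts. Higher levels were also found for 5 of 18 elastic fibre and microfibril genes, 4 of 9 hyaluronan genes and 3 of 9 prostaglandin genes, among them Mfap5, Fbn1, Has1 and Ptgs2. The lowest genes beside the other cells belonged to cartilage and keratinocytes, and these did not stay 2-fold lower in both libraries once cells with many markers of those types were left out. A gene was counted as higher or lower where log2 of (CPM + 1) differed by 1 or more, a 2-fold difference, in the same direction in both libraries, among 9808 genes with a mean of at least 5 CPM. There were 205 such genes higher (2.09% of the genes compared) and 289 lower (2.95%). The 205 include the 4 markers of the rule, which are higher by the choice of cells. With cells holding 3 or more epithelial or 5 or more chondrocyte markers left out on both sides, there were 194 higher and 204 lower. Thinning every cell to 3000 UMIs before the rule gave 328 and 552, and a pseudocount of 5 CPM gave 143 lower. The median over all genes was -0.04 on the log2 scale in the proximal library and -0.06 in the distal library. No p-value is attached to these counts.

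The genes farthest above the other cells included surface and signalling proteins. Ly6c1, a GPI-anchored relative of Ly6a, stood at 89.3 CPM against 7.07 CPM in the proximal library and at 79.8 against 5.08 CPM in the distal library, which is 12.6-fold (11.8 to 13.6) and 15.7-fold (14.2 to 17.4) higher. It was found in 67.3% of proximal members against 6.90% of other cells, and at 3000 UMIs in 20.1% against 1.59%. Tek, the angiopoietin receptor best known from endothelium, was 17.2-fold (15.6 to 18.9) and 8.40-fold (7.56 to 9.33) higher. Its level rested on many cells, with a UMI in 66.1% of proximal and 59.2% of distal members. The endothelial list of 8 genes summed to 68.3 CPM in proximal and 66.0 CPM in distal members, against 17.0 and 18.1 CPM in the other cells, and Tek alone gave 57.0 and 56.4 CPM of it. Pecam1, the gene of CD31 and the other list member abundant enough to compare, stood at 8.09 against 4.997 CPM in the proximal and 3.99 against 4.91 CPM in the distal library. Sox17 had no UMI in members of either library, which allows up to 0.165 CPM in the proximal and 0.307 CPM in the distal library, and Cdh5 stood at 0.385 and 0.102 CPM. Cd55 stood at 294 against 13.7 CPM and at 429 against 57.0 CPM, 21.4-fold (20.5 to 22.4) and 7.53-fold (7.26 to 7.82) higher. Its transcripts were spread over members, in 90.3% of proximal and 93.8% of distal cells.

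Mitochondrial, membrane and cytoskeletal genes were among them too, and by the weaker of both libraries Efhd1 and Lrrn4cl came right after Ly6c1, ahead of Tek and Cd55. Efhd1, a calcium-binding mitochondrial protein, stood at 52.1 CPM in proximal and 74.1 CPM in distal members against 2.98 and 6.55 CPM, 17.5-fold (15.8 to 19.4) and 11.3-fold (10.3 to 12.5) higher. Lrrn4cl, a leucine-rich repeat membrane protein, was 14.7-fold and 9.25-fold higher, and Anxa3, a calcium-dependent phospholipid-binding annexin, 10.4-fold and 7.14-fold. Gap43, a growth-cone protein of neurons, stood at 459 CPM and 474 CPM in members and was 6.56-fold and 5.69-fold higher. The phosphodiesterase gene Pde8a was 7.998-fold and 5.94-fold higher, and the small heat-shock protein gene Hspb8 7.21-fold and 5.68-fold. Secreted factors were among the 15 highest as well. Sema3c, a guidance ligand, stood at 483 and 603 CPM against 61.2 and 104 CPM, 7.89-fold and 5.78-fold higher. Igfbp6, which binds IGF2, was 5.92-fold and 8.17-fold higher, Nov (CCN3), a matricellular protein, 5.28-fold and 6.29-fold, and Clec3b, the plasminogen-binding protein tetranectin, 5.55-fold and 5.31-fold.

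**Figure D3:**
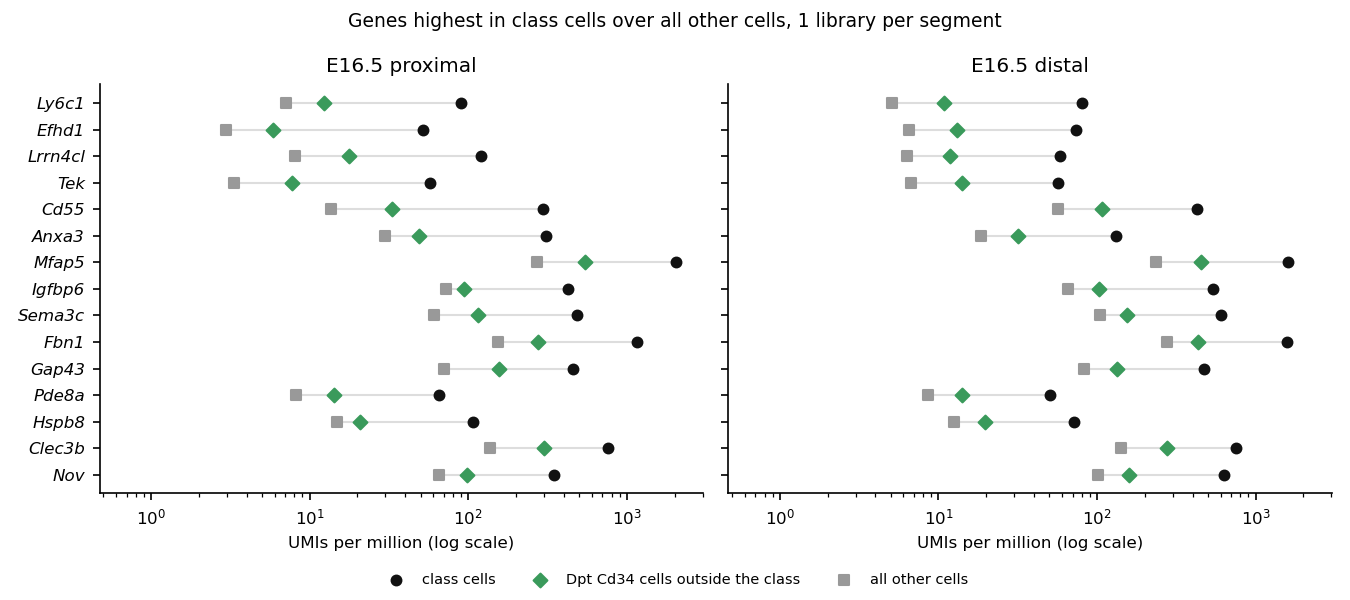
Level (x axis, CPM on a log scale) of the 15 genes named as highest in Pi16/Dpp4 cells (circles) against all other cells (squares) and against Dpt Cd34 cells outside the class (diamonds), in each library. The circle lies to the right and the diamond between the other 2 points for every gene shown, as for Cd55 in the proximal library at 294, 33.2 and 13.7 CPM.

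Of 20 genes listed from adult Pi16 adventitial fibroblasts, 19 were abundant enough to compare, 12 were higher, beside 2.09% of all genes, and none was lower. Their medians were 2.72 and 2.497 on the log2 scale in the proximal and distal libraries. The list describes adult cells with the same defining markers, so it is not independent of the rule. Beside the genes above they included Creb5, a transcription factor of the CREB family, at 297 and 311 CPM against 60.5 and 144 CPM. Adgrd1, an adhesion G protein-coupled receptor, was 21.5-fold (19.2 to 24.0) higher in the proximal and 8.27-fold (7.31 to 9.36) in the distal library. Ackr3, a scavenger receptor for the chemokine CXCL12, was 6.97-fold and 2.38-fold higher, and Dact2, an intracellular modulator of Wnt and TGF-beta signalling, 14.4-fold and 12.5-fold. The members that did not reach 2-fold in both libraries were Fn1, Uchl1, Limch1, Bmp7, Pcsk6, Opcml and Il33. Il33, an alarmin cytokine, was 3.18-fold lower in proximal members and 1.11-fold (0.873 to 1.41) higher in distal members. Of 10 fascia genes, 7 were compared and 5 were higher, namely Mfap5, Clec3b, Nov, Tppp3 and Creb5. Tppp3, a tubulin-binding protein, stood at 179 and 683 CPM against 63.3 and 160 CPM.

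The class also carried the genes shared by fibroblasts in general. Of 16 such genes, all compared, 7 were higher and none lower, beside 2.09% and 2.95% of all genes, with medians of 1.40 and 0.93. Dpt, encoding dermatopontin, stood at 562 CPM against 86.3 CPM in the proximal library and 352 against 123 CPM in the distal one. The surface sialomucin gene Cd34 stood at 466 against 121 CPM and at 535 against 129 CPM, and Cd248 (endosialin) at 334 against 49.5 CPM and at 308 against 86.1 CPM. Dcn, the proteoglycan decorin, was 2.81-fold and 2.14-fold higher, and the collagen gene Col1a1 1.81-fold and 1.11-fold. Receptors for platelet-derived growth factor stood on the other side. Pdgfra was at 84.6 against 132 CPM and at 152 against 232 CPM, and Pdgfrb at 20.6 against 44.8 CPM and at 27.2 against 55.3 CPM. The name fibroblast is thus met by the matrix and surface genes of the list, with lower Pdgfra and Pdgfrb than in the average sorted cell. Hic1 itself stood at 19.5 against 22.2 CPM and at 19.1 against 28.4 CPM.

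Genes of elastic fibres and their microfibril scaffold were divided. Of 18 compared, 5 were higher and 1 lower, beside 2.09% and 2.95% of all genes. Mfap5 stood at 2033 against 272 CPM and at 1600 against 237 CPM, which is 7.47-fold (7.37 to 7.57) and 6.76-fold (6.64 to 6.89) higher. Fbn1 stood at 1158 against 154 CPM and at 1571 against 277 CPM, 7.51-fold and 5.66-fold higher. Loxl1, an elastin cross-linking enzyme, was 4.14-fold and 2.17-fold higher, and Emilin2, a glycoprotein of the fibre surface, 3.83-fold and 4.04-fold. The remaining higher gene was Efemp1 (fibulin-3), and Emilin3 was lower at 2.31 against 9.11 CPM and 4.09 against 13.8 CPM. Of 13 interstitial collagens, Col5a3 alone was higher, at 333 against 66.7 CPM and 426 against 74.6 CPM, and Col24a1 alone was lower. Of 11 small leucine-rich proteoglycans, Dcn and Prelp were higher and Fmod (fibromodulin), also a tendon gene, was lower.

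Hyaluronan genes were higher in 4 of 9 compared, beside 2.09% of all genes, and lower in none. They were the synthase Has1, the precursor enzyme Ugdh, the receptor Cd44 and the hyaluronan cross-linker Tnfaip6. Has1 stood at 72.3 against 7.26 CPM and at 59.8 against 13.7 CPM, 9.97-fold (9.26 to 10.7) and 4.36-fold (3.97 to 4.78) higher. Cd44 was 4.91-fold and 4.64-fold higher, Ugdh 3.70-fold and 2.28-fold, and Tnfaip6 4.02-fold and 2.40-fold.

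Prostaglandin genes were higher in 3 of 9 compared, beside 2.09% of all genes, and lower in none. Ptgs2, the inducible cyclooxygenase, stood at 68.6 against 2.24 CPM in the proximal library and 36.6 against 5.55 CPM in the distal one, 30.7-fold (27.6 to 34.1) and 6.59-fold (5.81 to 7.47) higher. Ptgs1, the constitutive cyclooxygenase, was 3.06-fold (2.84 to 3.30) and 6.08-fold (5.58 to 6.61) higher. Akr1c18, a steroid and prostaglandin reductase, stood at 20.9 CPM in proximal members against 0.0600 CPM, from 379 UMIs in 70 cells against 13 UMIs. In the distal library its 37 UMIs came from 4 members, 27 of them from 1 cell, against 2 UMIs in all other cells. The ratios were 348 (201 to 659) and 283 (73.0 to 2422). The distal value of Akr1c18 therefore rests on very few cells. The gene reached the mean of 5 CPM through its level in members alone, so its count as higher was in part set by the filter.

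Wnt2 is part of the rule, and it was the only ligand of 8 compared that was higher, while Wnt4, Wnt5b and Wnt6 were lower. Beside this and the next counts, 2.09% of all genes were higher and 2.95% lower. Of 15 Wnt receptors and targets, none was higher and 3 were lower, namely Nkd2, an inhibitor induced by the pathway, the receptor Fzd9, and Lef1, a transcription factor of the pathway. Lef1 stood at 1.49 against 11.2 CPM and at 2.35 against 16.4 CPM. Axin2, a widely used Wnt target, stood at 5.84 against 12.3 CPM and 11.8 against 32.6 CPM. Among 15 secreted and intracellular modulators, Sfrp4 and Dact2 were higher, and Wif1, Frzb and Rspo1 were lower. Wif1, a secreted inhibitor, stood at 10.2 against 66.1 CPM and at 20.7 against 73.6 CPM. Of 23 BMP and TGF-beta ligands and antagonists, Fstl1, Bmp3 and Chrdl1 were higher and Nog and Bmp5 lower. Bmp3 was 5.74-fold and 2.12-fold higher.

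The other side of the adult division, the Col15a1 parenchymal fibroblast genes, was compared for 10 genes. Apod was higher and Col15a1 and Cxcl14 were lower, where 2.09% of all genes were higher and 2.95% lower. Col15a1, a basement membrane zone collagen, stood at 2.09 against 10.1 CPM and at 8.79 against 19.8 CPM. By number of markers it stood at 13.03, 3.69, 3.10, 1.85 and 2.28 CPM in proximal cells with 0 to 4 markers and at 21.1, 15.3, 17.4, 10.9 and 5.23 CPM in distal cells. The chemokine Cxcl14 was 2.61-fold and 2.93-fold lower. Of 11 adipogenic genes, Klf4 alone was higher, at 2.40-fold and 2.24-fold. Atf3 was the other immediate early gene of 20 that was higher in both libraries, and none was lower. The whole immediate early list summed to 10696 against 5035 CPM in the proximal and 8180 against 5860 CPM in the distal library, with medians of 0.55 and 0.18 on the log2 scale. Jun, a subunit of AP-1, gave the most of it in the proximal library, at 2522 against 666 CPM. Genes of this list, and Ptgs2 as well, are known to respond to tissue dissociation, whose part in these levels was not tested.

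Among 26 mesenchymal transcription factors, Klf4 and Creb5 were higher, and Snai1, Snai2, Meox1 and Foxc1 were lower. Over all genes 2.09% were higher and 2.95% lower, which also stands beside the counts that follow. Of 13 retinoic acid genes, the synthesis enzyme Aldh1a1 was higher, at 13.99 against 4.12 CPM and 4.91 against 1.76 CPM. The degrading enzyme Cyp26b1 was lower, at 3.85 against 15.7 CPM and 7.16 against 55.9 CPM, as was the reductase Dhrs3. Guidance genes were higher in 2 of 12, Sema3c and Sema3d, and Plxna4, a semaphorin co-receptor, was lower. Of 13 complement and chemokine genes, Cd55, the C1 inhibitor gene Serping1 and Ackr3 were higher and Cxcl14 was lower. The Ly6 family was divided, with Ly6c1 and Lypd2 higher beside Ly6a, which is part of the rule, and Ly6d, Ly6h and Ly6g6c lower of 7. Of 18 fetal growth genes Igfbp6 alone was higher. None of 16 G2/M genes, 16 S phase genes, 12 limb Hox genes or 15 axis factors was 2-fold apart in both libraries. At 3000 UMIs, 3 or more G2/M genes were detected in 16.7% (13.9 to 19.7%) of proximal and 13.9% (10.6 to 17.9%) of distal members, against 17.9% and 11.95% of other cells.

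**Figure D4:**
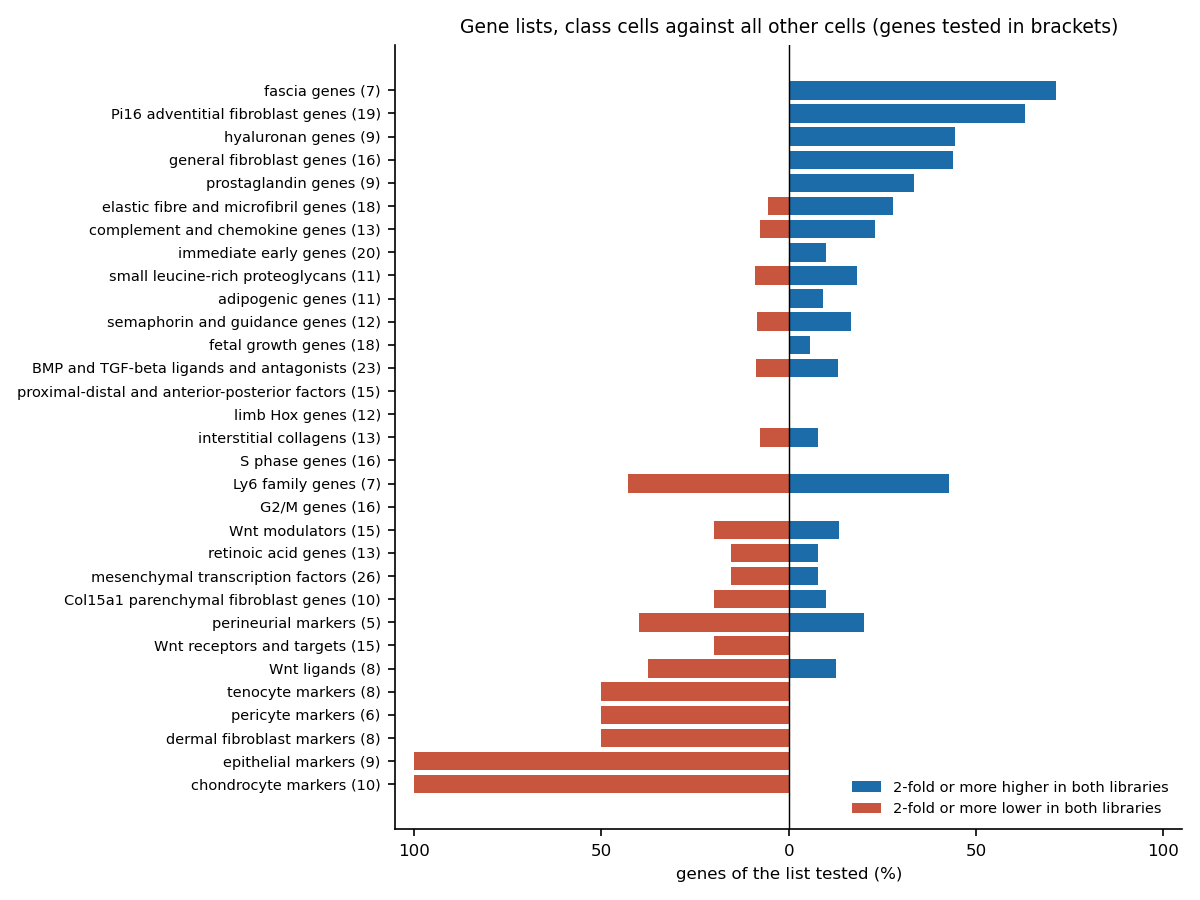
Share of the compared genes of each list (y axis, number of genes in brackets) that were at least 2-fold higher (bars to the right, percent) or lower (bars to the left) in Pi16/Dpp4 cells than in all other cells in both libraries, for lists with 5 or more genes compared. Fascia (5 of 7) and adventitial genes (12 of 19) reach farthest right, and all 9 epithelial and all 10 chondrocyte markers are on the left.

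The 10 genes farthest below the other cells belonged to cartilage and skin. Cytl1, a secreted chondrocyte cytokine, stood at 3.08 against 63.2 CPM and at 2.76 against 65.1 CPM, 20.5-fold and 23.6-fold lower. Other cartilage genes were Matn4 (12.7-fold and 15.9-fold lower), Lect1 (12.3-fold and 20.3-fold), Col9a3 (12.4-fold and 11.6-fold), Col9a1 (9.14-fold and 17.0-fold), Comp (9.18-fold and 24.1-fold) and Col2a1 (8.58-fold and 24.8-fold). What remained of these 7 cartilage genes was unevenly spread over members. The 5 members with the most UMIs held from 58.9% (Cytl1) to 87.0% (Col9a1) of a gene's UMIs in the proximal library and from 29.2% (Matn4) to 87.1% (Lect1) in the distal one, and Col2a1 was found in 308 of 672 proximal members. Genes of differentiating keratinocytes were Krt1 (10.9-fold and 36.3-fold lower), Krt10 (7.82-fold and 11.5-fold) and Stfa3 (8.29-fold and 22.9-fold). Cells with many cartilage or skin markers weigh on these values. With cells holding 3 or more epithelial or 5 or more chondrocyte markers left out on both sides, 15 of the 25 named genes stayed 2-fold apart in both libraries, all of them from the higher side, and none of these 10 lower genes did. Their log2 values then ran from -0.94 (Col9a1) to 0.18 (Cytl1 and Stfa3) in the proximal library and from -2.53 (Comp) to -0.20 (Krt10) in the distal library, so that for Cytl1 and Stfa3 the direction turned in the proximal library.

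Markers of other cell types were read for their whole lists, beside 2.09% of all genes higher and 2.95% lower in members. All 10 chondrocyte and all 9 epithelial markers compared were lower in members. Summed, the chondrocyte list stood at 550 CPM against 4830 CPM in the proximal and 99.4 against 1283 CPM in the distal library, and the epithelial list at 725 against 5281 CPM and 66.0 against 799 CPM. At 3000 UMIs, 3 or more epithelial markers were found in 17 proximal members (2.53%) and in no distal member, a count that leaves room for at most 0.804%, and 3 or more chondrocyte markers in 15 (2.23%) and 2 (0.536%). Tenocyte markers were lower in 4 of 8 (Scx, Tnmd, Mkx and Fmod), pericyte markers in 3 of 6 and dermal fibroblast markers in 4 of 8. At 3000 UMIs, 3 or more tenocyte markers were found in 68 proximal (10.1%) and 21 distal members (5.63%), against 14.3% and 10.99% of other cells. In Dpt Cd34 cells outside the class the shares were 9.40% and 6.08%. Of the pericyte markers Rgs5 stood at 0.551 against 21.8 CPM and at 1.74 against 25.8 CPM. No muscle transcript of Pax7, Myod1 or Myf5 and no Ptprc (CD45) transcript was found in members of either library. Other genes of these lists were detected. The muscle list summed to 12.6 against 32.6 CPM in the proximal and 8.18 against 13.3 CPM in the distal library. The immune list summed to 7.60 against 3.43 CPM and 3.68 against 4.82 CPM. The mesothelial marker Krt19 was higher, at 13.1 against 1.03 CPM and 20.2 against 1.28 CPM, while Msln (mesothelin) stood at 1.10 and 0.205 CPM. The mesothelial list of 6 genes summed to 17.5 against 2.18 CPM in the proximal and 21.1 against 1.52 CPM in the distal library. Krt19 alone gave 13.1 and 20.2 CPM of it in members. Krt19 was found in 110 of 672 proximal and 55 of 373 distal members, and 5 distal members held 39.9% of its UMIs there. Krt19 reached the mean of 5 CPM through its level in members alone, so its count as higher was in part set by the filter. Of the synovial lining list, 2 genes were compared and Cd55 was higher, with list medians of 1.87 and 1.47 on the log2 scale. That list of 6 genes summed to 317 against 56.1 CPM in the proximal and 470 against 102 CPM in the distal library, of which Cd55 gave 294 and 429 CPM in members. Its defining gene Prg4 (lubricin) stood at 0.220 against 3.97 CPM and at 0.716 against 5.52 CPM, and Gdf5, a joint growth factor, at 1.38 against 6.24 CPM and 0.614 against 2.94 CPM. Perineurial markers had 1 higher gene, Lypd2, and 2 lower genes, Wnt6 and Ptch1, of 5, and erythroid globins were lower in 4 of 4. No gene of the glial (2 compared) and muscle (1 compared) lists was 2-fold apart in both libraries, and no immune marker was abundant enough to compare.

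A closer neighbour is a fibroblast with Dpt and Cd34 transcripts that did not meet the rule, of which there were 2766 proximal and 2467 distal cells. Against them, 119 of 9648 genes were higher in both libraries (1.23%) and 81 were lower (0.84%). The 119 again include the 4 markers of the rule. A pseudocount of 5 CPM gave 75 higher and 24 lower, and thinning before the rule 270 lower. The medians over all genes were -0.06 and -0.02. Most of the genes named above stayed apart from this neighbour, at smaller ratios. Cd55 was 8.86-fold and 4.03-fold higher, Efhd1 8.83-fold and 5.66-fold, Tek 7.33-fold and 4.01-fold, and Ly6c1 7.25-fold and 7.38-fold. Lrrn4cl was 6.74-fold and 4.91-fold higher, Anxa3 6.31-fold and 4.14-fold, Igfbp6 4.52-fold and 5.24-fold, and Sema3c 4.18-fold and 3.91-fold. The 10 highest also included Prelp, a proteoglycan that anchors basement membranes, at 68.6 against 15.7 CPM and 76.4 against 15.01 CPM, and Efemp1 at 239 against 40.1 CPM and 69.4 against 15.9 CPM. Of 19 adventitial genes 10 were higher against this neighbour and none was lower. Elastic fibre and microfibril genes were higher in 4 of 18 and lower in 1, with medians of 0.16 and -0.03 on the log2 scale. Hyaluronan genes were higher in 3 of 9 and prostaglandin genes in 3 of 9, and none of either was lower. Of the 16 general fibroblast genes, Clec3b, Mfap5 and Cd248 were higher. Dpt, used to pick the neighbour, was 1.98-fold and 1.19-fold higher in members.

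Genes lower in members than in Dpt Cd34 cells were led by secreted and matrix proteins. Egfl6, a secreted EGF-repeat protein of the skin basement membrane, stood at 96.2 against 315 CPM and at 147 against 459 CPM. Sparcl1, a matricellular protein, was 4.31-fold and 3.16-fold lower, and Igfbp2, an IGF-binding protein, 3.53-fold and 2.89-fold. Cxcl14 was 2.77-fold and 2.95-fold lower, and the membrane protein gene Tmem176b 2.28-fold and 2.25-fold. Of 7 dermal fibroblast markers 4 were lower too (Col7a1, Rspo1, Irx1 and Nkd2), beside 0.84% of all genes. No chondrocyte, epithelial, tenocyte or pericyte marker was lower against this neighbour.

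Beside other fibroblast groups of the same libraries, the levels of the class stood apart by different amounts. Cells with 2 or more of Sfrp4, Prss12 and Dmrt2 (497 proximal and 194 distal cells outside the class) were among the closer ones. Their Clec3b stood at 488 and 319 CPM, beside 763 and 754 CPM in members, and their Mfap5 at 804 and 464 CPM, beside 2033 and 1600 CPM. Their Cd55 was at 45.4 and 84.2 CPM, beside 294 and 429 CPM. The elastic fibre and microfibril list summed to 6842 and 6442 CPM in them, near the 7715 and 7354 CPM of members. Their hyaluronan list summed to 1271 and 1355 CPM, beside 2202 and 2270 CPM. Their prostaglandin list summed to 249 and 276 CPM, beside 408 and 348 CPM. In the distal library the Mfap5 of cells with 2 or more of Entpd2, Alx1 and Vtn (567 proximal and 45 distal cells) was slightly above that of the Sfrp4, Prss12 and Dmrt2 cells, at 482 CPM. Dermal marker cells (1942 and 2120) lay farthest for Clec3b, at 65.0 and 36.7 CPM. The Entpd2, Alx1 and Vtn cells held Hic1 at 40.6 and 45.0 CPM, above the 19.5 and 19.1 CPM of members. These groups share cells with the Dpt Cd34 group: 355 of the 497 and 771 of the 1942 proximal cells.

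Clustering without the 4 markers gathered most members, at different places for the segments. Among 22 clusters, 410 proximal members (61.0%) fell in cluster 12, and 200 distal members (53.6%) in cluster 15. Cluster 12 was led by Ly6a, Wnt2, Lrrn4cl, Efemp1 and Ptgs2 and was made up of members for 70.6%, and cluster 15 was led by Spink6, Cldn3, Pi16, Olfml2a and Stmn4 and was made up of members for 39.1%. Since cluster 12 held 581 proximal and 62 distal cells and cluster 15 held 18 proximal and 511 distal cells, these 2 clusters follow the library as well as the class. The next places of proximal members were cluster 2 with 130 cells (19.3%), led by Clec3b, Qpct and Ntrk2, and cluster 4 with 74 cells (11.01%), led by the mitotic genes Asf1b, Mxd3 and Nusap1. In all, members fell in 15 clusters of the proximal and 13 of the distal library. Proximal members outside cluster 12 carried less of the class genes, with Cd55 at 140 CPM against 400 CPM inside and Fbn1 at 764 against 1431 CPM, and more Col2a1 (445 against 65.6 CPM) and Krt14 (117 against 5.31 CPM). Distal members outside cluster 15 also carried less Cd55 (322 against 522 CPM) and Fbn1 (1029 against 2038 CPM) than those inside, but more Dpp4, at 91.6 against 54.9 CPM, more Wnt2, at 125 against 96.8 CPM, and more Dpt, at 482 against 241 CPM. In the distal library, 311 cells of cluster 15 did not meet the rule. They held Pi16 at 307 CPM, near the 364 CPM of members there. Their Dpp4 stood at 4.92 against 54.9 CPM and their Wnt2 at 10.3 against 96.8 CPM, which the rule in part sets. Outside the rule, their Cd55 stood at 442 against 522 CPM, Efhd1 at 77.4 against 92.4 CPM and Sema3c at 558 against 702 CPM. Igfbp6 lay farther apart, at 331 against 688 CPM. The Cd55 of these cells was above the 322 CPM of distal members outside cluster 15, so high Cd55 was not confined to members.

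Proximal and distal members were compared with each other and with the same ratio in the other cells. Of 9544 genes, 420 (4.4%) were higher and 247 (2.59%) lower in distal members, on the log2(CPM + 1) scale. Of these, 187 of the 420 (44.5%) and 141 of the 247 (57.1%) were 2-fold apart in the other cells in the same direction. In the opposite direction there were 3 of each, and the rest were less than 2-fold apart there. The share of all genes that was 2-fold apart in the other cells was not counted, so these shares have no background beside them. With the ratio of the other cells subtracted from each gene, an alternative chosen after seeing the data, 164 were higher and 162 lower. The counts moved with other choices as well, to 1680 higher and 1115 lower when every cell was thinned before the rule, to 677 and 548 without the filter on mean CPM, and to 224 higher with a pseudocount of 5 CPM. The leading clusters alone (cluster 12 for proximal and 15 for distal), also chosen after seeing the data, gave 801 higher. The median over all genes was 0.09 on the log2 scale.

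Homeobox genes that mark position along the limb differed between proximal and distal members. Hoxd13, a homeobox gene of the digits and wrist, stood at 2.86 CPM in proximal and 35.3 CPM in distal members, and at 1.60 and 80.6 CPM in the other cells. Hoxa13 stood at 0.165 CPM from 3 UMIs and 18.8 CPM, a ratio of 114 (38.4 to 557), and at 0.452 and 32.0 CPM in the other cells. Hoxa11 went from 8.26 to 38.7 CPM, Hoxd11 from 12.99 to 36.5 CPM and Hoxd9 from 9.25 to 19.6 CPM. Of 11 limb Hox genes compared, these 5 were higher in distal members and Hoxb2 was lower, at 13.8 and 1.64 CPM, beside 4.4% and 2.59% of all genes. Hoxd9 was 2.12-fold (1.72 to 2.63) higher in distal members and 1.20-fold lower in distal other cells.

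The 8 genes farthest up in distal members were of several kinds. Anxa8, an annexin, stood at 12.2 CPM in proximal and 136 CPM in distal members, 11.1-fold higher, whereas in the other cells it was 2.77-fold lower in the distal library. It was found in 153 of 373 distal members. Olfml2a, an olfactomedin-domain matrix protein, was 11.8-fold higher in distal members and 3.97-fold in the other cells, and the chemokine Ccl2 13.7-fold and 3.86-fold. In Ccl2, 5 distal members held 55.3% of the UMIs. Trps1, a GATA-type repressor of limb and cartilage development, stood at 20.3 and 126 CPM, 6.21-fold higher, beside 2.59-fold in the other cells. Syne1, a nuclear envelope spectrin-repeat protein, was 8.19-fold and 3.49-fold higher, and the replication-dependent histone gene Hist1h2ap, whose family shares sequence, 6.70-fold and 4.29-fold. Spink6, an epidermal protease inhibitor, stood at 0.220 CPM from 4 UMIs in 1 proximal member and 89.5 CPM from 875 UMIs in 28 distal members, of which 5 cells held 72.1%, and at 0.0554 and 7.22 CPM in the other cells. Gm10076, a predicted gene, differed as much in the other cells (9.24-fold) as in members (10.1-fold).

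The 8 genes farthest down in distal members were mostly keratinocyte genes carried by a few proximal cells. Lor, the cornified envelope protein loricrin, stood at 316 CPM in proximal and 1.64 CPM in distal members, but 5 proximal members held 89.0% of its 5744 UMIs and 1 cell alone held 3115. Calm4, Sprr1a, Asprv1, Ly6d, Sprr1b and Serpinb2, all of differentiating epidermis, followed with 161-fold, 135-fold, 92.5-fold, 74.9-fold, 277-fold and 65.5-fold lower levels. Sprr1b had 2 UMIs in distal members, so that its ratio runs from 76.4 to 2288. All 7 were lower in the other cells of the distal library as well, with Lor at 1259 CPM in proximal and 55.3 CPM in distal other cells. With the ratio of the other cells subtracted on the log2(CPM + 1) scale, Serpinb2 (-0.44) and Asprv1 (-0.92) were no longer 2-fold apart, and the other 5 lay between -2.43 (Lor) and -1.01 (Sprr1a). These genes moved with the epithelial markers, which summed to 725 CPM in proximal and 66.0 CPM in distal members and of which 7 of 8 compared were lower in distal members. Chondrocyte markers were lower there too in 9 of 10, with a median of -2.22 on the log2 scale and sums of 550 and 99.4 CPM, and their part in the segment differences was not tested. Without the 17 proximal members that held 3 or more epithelial markers at 3000 UMIs, an alternative chosen after seeing the data, the difference for Lor shrank from -6.91 to -2.82 on the log2 scale and for Ly6d from -5.61 to -1.43. Gm3550, a predicted gene, was 41.6-fold lower in distal members and 38.4-fold lower in distal other cells, which left 0.04 on the log2 scale after subtraction.

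**Figure D5:**
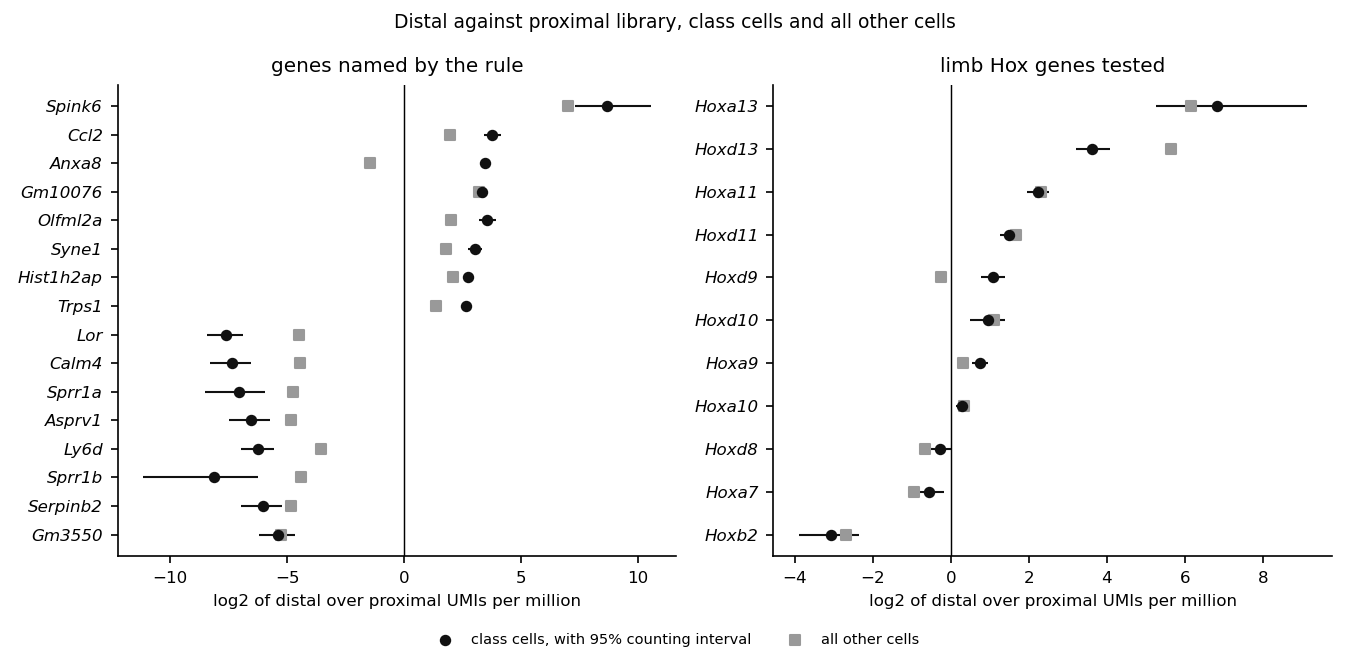
Log2 ratio of distal over proximal CPM (x axis) in Pi16/Dpp4 cells (circles, with exact 95% intervals) and in all other cells (squares), for the 8 highest and 8 lowest genes on the left and the 11 limb Hox genes compared on the right. Anxa8 lies on opposite sides for the 2 groups of cells (11.1-fold higher in distal members, 2.77-fold lower in distal other cells), and Gm10076 and Gm3550 have nearly the same ratio in both.

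Earlier libraries held almost no cells that met the rule. At E14.5 there were 7 of 8381 cells, 0.0835% (0.0336 to 0.172%). None was found among 3165 sorted cells at E11.5, 4714 at E12.5 and 6123 at E13.5, which allow shares of up to 0.0948%, 0.0636% and 0.0490%, and none among 5464 and 5682 whole-limb cells at E11.5. Depth was lower there, with a median of 14333 UMIs at E14.5 and 6788 to 8992 in the earlier sorted libraries, against 18473 and 17275 at E16.5. At 3000 UMIs, 1 of 8381 cells met the rule at E14.5. Over all cells of a library, Ly6a stood at 0.157 CPM at E14.5 and at 44.0 and 37.6 CPM in the E16.5 proximal and distal libraries. Pi16 stood at 0.754, 12.7 and 36.1 CPM and Dpp4 at 1.00, 21.7 and 9.32 CPM in the same order. Wnt2 was at 10.2 CPM at E14.5. Clec3b stood at 6.66, 186 and 179 CPM, Mfap5 at 38.5, 408 and 320 CPM, and Cd55 at 5.75, 35.4 and 79.9 CPM. Stage and dissected segment change together between these libraries, and the kit changed from v2 to v3 between E13.5 and E14.5, so their parts cannot be told apart.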

How the data were processed

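Single-cell RNA-seq was deposited for 8 forelimb libraries, and the comparisons use the E16.5 proximal and distal ones. The authors prepared 3' libraries with the 10x Chromium v3 kit at E14.5 and E16.5 and v2 earlier, aligned reads to a modified mm10 genome with Cell Ranger (3.0.2 proximal, 6.0.1 distal, per the file headers) and deposited filtered matrices of UMI counts per gene and barcode, not normalized. The reference held 3 added sequences, among them tdTomato. The minimum of 3000 UMIs follows the study, and the limit of 10% mitochondrial UMIs was set here. The study's removal of epithelial clusters was not applied to the main comparisons, and was replaced by an alternative that leaves such cells out.

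Counts were summed over the cells of a group in each library and divided by the summed total to give CPM. Fold changes printed as such are ratios of CPM with exact 95% intervals (Poisson counts conditioned on their sum). A gene counted as higher or lower where log2(CPM + 1) differed by at least 1 in both libraries, among genes with a mean of 5 CPM or more. Shares have Clopper-Pearson intervals, the difference of 2 shares a Newcombe interval from Wilson limits, and a count of 0 is given with the limit that 3 counts allow. For comparison at equal depth every cell was thinned at random to 3000 UMIs. Neighbouring groups were cells outside the class with at least 1 UMI of Dpt and of Cd34, with 2 or more of Entpd2, Alx1 and Vtn or of Sfrp4, Prss12 and Dmrt2, or with 3 or more dermal markers. Clusters were made with scanpy from 2000 variable genes without the 4 markers, 50 principal components, 25 neighbours and Leiden resolution 1. Scrublet's automatic threshold called 1 of 11109 proximal and 0 of 8447 distal cells, which shows that it did not work, so no cell was removed as a doublet and an alternative dropped the 8% of cells with the highest score.

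The members of the class and the 39 gene lists were chosen with earlier results of these data known. Genes were named by rule: the 15 highest and 10 lowest against all other cells, the 10 highest and 5 lowest against Dpt Cd34 cells and the 8 at each end between segments, ranked by the weaker of both libraries where there are 2, with at least 50 CPM on the higher side. The rule leaves out the 4 markers, haemoglobin, mitochondrial, ribosomal protein and Y-linked genes and Xist. For each list up to 4 members by level and its defining genes were fixed. Any further list member was named after its values were seen. The scripts were tested on simulated counts. Other alternatives changed the number of markers, the UMI and mitochondrial limits, the pseudocount, the filter on low genes, the weighting of cells and the cells compared. All value columns were used, and 0 were set aside. Software was Python 3.11.15, numpy 2.4.6, scipy 1.17.1, pandas 2.3.3, scanpy 1.11.5, leidenalg 0.10.2, scikit-image 0.26.0 and matplotlib 3.10.9.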

Additional observations from a re-analysis of the deposited data

Results flagged for a closer look

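Of 9808 genes compared, 4 were at least 2-fold apart from the other cells in opposite directions in the proximal and distal libraries, given as log2 of (CPM + 1) of Pi16/Dpp4 cells over all other cells. The difference between the libraries was not tested for any of them, since each segment is 1 library. Anxa8, an annexin, was at -1.93 in the proximal library (12.2 against 49.2 CPM) and at 2.87 in the distal library (136 against 17.8 CPM). Mfsd6, a membrane transporter-family protein, was at -1.28 (2.48 against 7.47 CPM) and 1.49 (8.79 against 2.49 CPM). Tac1, the precursor of substance P, was at 1.35 (24.0 against 8.78 CPM) and -1.22 (9.71 against 23.9 CPM). Gdf10, a secreted BMP family member, was at 1.01 (44.2 against 21.4 CPM) and -1.23 (11.1 against 27.5 CPM). Beside the closer Dpt Cd34 cells outside the class, Anxa8 (0.94 proximal and 2.36 distal) and Mfsd6 (0.38 and 1.70) were above 0 in both libraries, so their opposite directions were seen against the mixed other cells and not against this neighbour. Tac1 (0.70 and -1.62) and Gdf10 (0.40 and -0.47) kept opposite signs there.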

How the results depend on the processing

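The share of the class depended on depth and on the number of markers. Thinning every cell to 3000 UMIs gave 1.38% proximal and 0.663% distal, a difference of -0.714 points. At least 2 markers gave 10.7% and 10.2%, with a difference of -0.495 points whose interval (-1.35 to 0.373) includes 0, and all 4 markers gave 3.04% and 1.60%. Counts of genes moved by over 1.5 times under the next settings, apart from removal by Scrublet score. Under all 4 markers they did not. Thinning before the rule gave 328 higher and 552 lower than other cells, 270 lower than Dpt Cd34 cells, and 1680 higher and 1115 lower in distal members, where it leaves far fewer cells and UMIs. A pseudocount of 5 CPM gave 143 lower than other cells, 75 higher and 24 lower than Dpt Cd34 cells and 224 higher in distal members. Without the filter on mean CPM, 677 were higher and 548 lower in distal members. Among alternatives chosen after seeing the data, the leading cluster of each library alone gave 801 higher in distal members, and subtracting the ratio of the other cells gave 164 and 162. Removing the 8% of cells with the highest Scrublet score gave 235 higher and 336 lower than other cells, 143 and 110 than Dpt Cd34 cells, and 439 and 242 in distal members. With epithelial and chondrocyte marker cells left out of both sides, 15 of the 25 genes named against other cells kept the 2-fold call and the 10 lower ones lost it, and Cytl1 (0.18) and Stfa3 (0.18) turned direction in the proximal library. None of the other 23 turned direction, and all 25 kept the call under the other alternatives run. The size of the difference was less stable. Of 450 recomputed log2 values of these genes, 320 lay outside the counting interval, which is for the ratio without the pseudocount. Between segments, subtracting the ratio of the other cells turned Gm3550 from -4.71 to 0.04. Removal of cells called by Scrublet was not run, since it called 1 cell. No paired analysis was possible because each segment is 1 library. Low genes and the 45 distal Entpd2 Alx1 Vtn cells are limited by counts.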

Other observations

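Further list genes, named after their values were seen, differed between proximal and distal Pi16/Dpp4 cells, with 1 library per segment and no test. Of 11 adipogenic genes compared, 2 were lower in distal members, beside 2.59% of all genes, and none was higher, with a median of -0.07 on the log2 scale. Fabp4, a fatty-acid carrier of adipocytes, stood at 77.0 CPM in proximal and 2.05 CPM in distal members, a 37.7-fold (24.3 to 61.9) lower level, beside 7.05-fold lower in the other distal cells. Pparg, the master regulator of adipocytes, stood at 18.1 and 4.29 CPM, 4.22-fold lower, beside 1.65-fold in the other cells. Of the proximal members, 13 fell in cluster 21, which was led by Car3, Agt and Wfdc18 and also by Fabp4 and Pparg. Fst, the activin antagonist follistatin, stood at 488 and 90.6 CPM, 5.39-fold (5.03 to 5.78) lower, beside 1.79-fold in the other cells.

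Of 12 semaphorin and guidance genes compared, 4 were higher in distal members, beside 4.4% of all genes, and none was lower. They were Slit2, Slit3, Robo1 and Robo2, which encode repulsive ligands and their receptors, with Robo2 at 22.2 and 83.4 CPM. Their ratios were 2.32-fold, 2.12-fold, 2.11-fold and 3.76-fold, beside 2.08-fold, 2.496-fold, 1.75-fold and 4.79-fold in the other cells. Of 12 axis factors compared, 2 were higher and 2 lower in distal members, beside 4.4% and 2.59% of all genes. Tbx5, the forelimb T-box factor, was 3.48-fold higher beside 2.94-fold in the other cells. Meis2, a homeobox gene of the proximal limb, was 4.74-fold lower beside 3.81-fold. Of 9 prostaglandin genes compared, 1 was higher and 1 lower in distal members, with a median of -0.59 on the log2 scale. Akr1c18 was 5.52-fold lower, from 379 UMIs in proximal and 37 in distal members. Ptgfr, the prostaglandin F receptor, stood at 4.57 and 25.3 CPM, 5.53-fold (4.29 to 7.18) higher, beside 2.89-fold.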
